A study of Mus musculus with 238 samples.

Results

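The hippocampus was compared with the neocortex in control mice of 19 months of age. The comparison used 28 of the 238 RNA libraries of the series, 7 each from anterior hippocampus, posterior hippocampus, motor cortex and visual cortex. The members were the control libraries of 7 C57BL/6JN mice: 4 females with free access to food (AL, mice 63, 66, 68 and 69) and 3 males given saline (PBS, mice 76, 80 and 84) by injection behind the eye, as the plasma experiment required. A further PBS mouse, 72, had anterior hippocampus and motor cortex libraries, and it was left out of the difference because a full set of regions was needed. The study mapped the effects of dietary restriction (aDR, 5 females) and of plasma from young mice (YMP, 3 males) over 15 brain regions, and those 8 treated mice served here as separate animals in which the same regional difference could be measured. Sex, feeding experiment and injection experiment are 1 and the same split, so they cannot be told apart.

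Hippocampus and neocortex are both built from excitatory pyramidal neurons, local inhibitory interneurons and glia. The hippocampus is a folded sheet with a single main layer of principal cells. Granule cells of the dentate gyrus send mossy fibres to CA3, which projects to CA1 and on to the subiculum, and this circuit is known for its part in memory of places and events. The neocortex has stacked layers: the upper layers connect cortical areas with each other, and the deep layers project to the brainstem, striatum and thalamus. In bulk tissue, fewer cells of a type and less RNA per cell cannot be told apart.

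For every gene and mouse, the mean log2 CPM (counts relative to the library total, scaled by TMM) of both cortex libraries was subtracted from that of both hippocampus libraries. A positive difference is therefore higher in hippocampus. A gene was called when the adjusted p of limma (Benjamini-Hochberg over 13439 genes) was under 0.05. Levels are CPM on the same scale, given as mean ± SD over the 7 mice after averaging the paired libraries of a structure.

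The regional identity of the libraries was examined first. Prox1, a homeobox factor that marks dentate granule cells, ran from 26.0 to 213 CPM in the 14 hippocampus libraries and from 11.9 to 20.7 CPM in the 14 cortex libraries. Cux2, a homeobox factor of upper-layer cortical neurons, lay between 53.2 and 107 CPM in cortex and between 7.40 and 18.9 CPM in anterior hippocampus. The anterior hippocampus and the cortex libraries were thus set apart as labelled, and neither marker was used to tell motor from visual cortex. Posterior hippocampus was uneven. Its Cux2 level was 6.53 CPM in AL 68 and 10.4 CPM in PBS 76, 21.4 CPM in AL 69, 27.8 CPM in PBS 84 and 36.7 CPM in PBS 80, 42.3 CPM in AL 63 and 45.5 CPM in AL 66. The last 2 of these libraries also had the lowest posterior Prox1 levels, at 34.2 CPM in AL 63 and 26.0 CPM in AL 66, so they go part of the way against their label.

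Other libraries stood apart in markers of neighbouring tissue. Ttr, the transthyretin gene of the choroid plexus, was at 1365 CPM in the anterior hippocampus of PBS 76 and at most 0.745 CPM in the other 27 libraries. The summed level of the 12 choroid plexus markers was 1537 CPM in that library, and the lowest and the median of the 7 anterior libraries were 17.1 and 24.8 CPM. Tcf7l2, a transcription factor abundant in the thalamus, was between 108 and 239 CPM in the anterior hippocampus of AL 68, AL 69, PBS 80 and PBS 84 and between 23.3 and 35 CPM in that of AL 63, AL 66 and PBS 76. The visual cortex of PBS 76 had a Cux2 level of 53.8 CPM and a Rorb level of 57.2 CPM, whereas the other visual cortex libraries had at least 86.4 and 163 CPM. Its Rorb level also lay below the motor cortex libraries, at 81.5 to 155 CPM. These markers do not bear out its visual label. For several of the lists and genes below, values without these libraries are given as well.

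**Figure D1:**
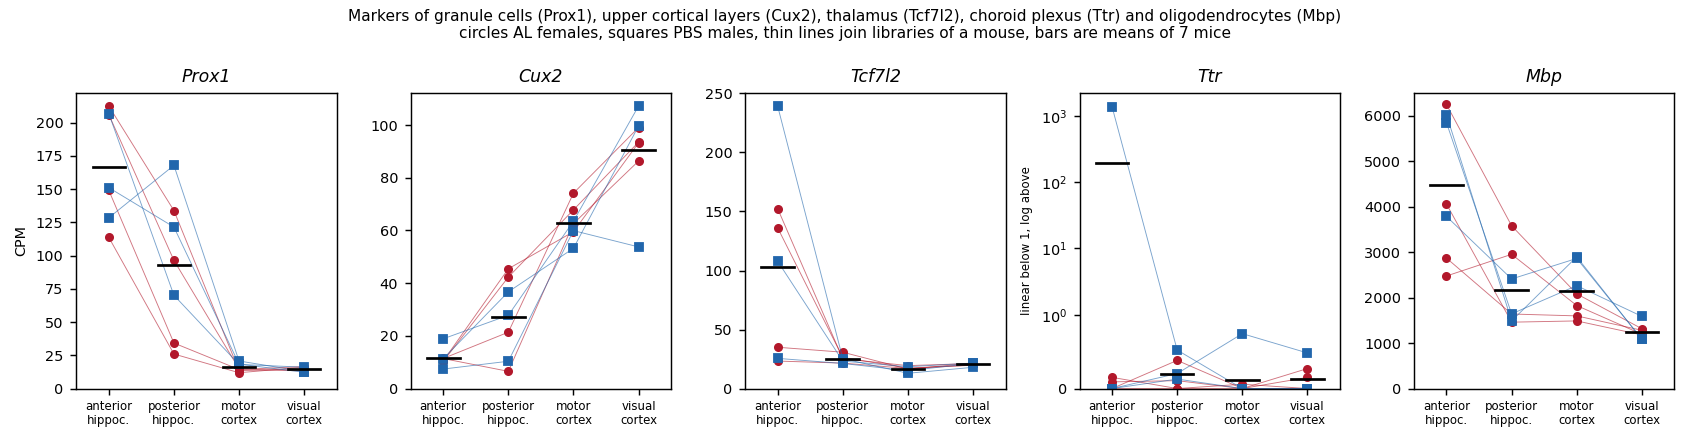
CPM of 5 tissue markers by region, with 1 point per library (circles AL females, squares PBS males), lines joining a mouse and bars for the mean of 7 mice. The Ttr axis is linear below 1 and logarithmic above. Ttr reaches 1365 CPM in the anterior hippocampus of PBS 76, and Cux2 reaches 42.3 and 45.5 CPM in the posterior hippocampus of AL 63 and AL 66.

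Library totals ran from 1.96 to 15.2 M counts in hippocampus and from 3.66 to 17.3 M in neocortex, and mitochondrial genes took 1.70% to 2.72% of the counts. Xist, the RNA of the inactive X chromosome, was at 178 to 387 CPM in the females and at most 3.14 CPM in the males, and the Y-linked Ddx3y was at 63.7 to 94.4 CPM in the males and had no count in the females, so the sexes matched the labels. Nothing in the labels says that replicates were prepared apart beyond the mouse number.

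The structures differed in a large part of the transcriptome. Of 13439 genes, 7666 were called (57.0%), 3800 of them higher in hippocampus (28.3%) and 3866 lower (28.8%). With library totals that were not scaled by TMM, the split was 4795 higher and 3145 lower, and the median difference over all genes moved from 0.01 to 0.06 (log2). Most called differences were small. At 2-fold or more there were 811 genes (6.03%), 363 higher in hippocampus (2.70%) and 448 lower (3.33%). In 1537 genes (11.4%) both hippocampus libraries lay on the same side of both cortex libraries in every mouse, 621 above (4.62%) and 916 below (6.82%). Without the posterior libraries of AL 63 and AL 66 the count of called genes was 7825, without the anterior library of PBS 76 it was 7597, and without the visual cortex library of PBS 76 it was 7507. It was 6305 without the 4 anterior libraries of high Tcf7l2, where the posterior library of each of those mice stood alone.

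The genes with the largest excess in hippocampus included several of the dentate gyrus. C1ql2 encodes a secreted C1q-like protein of mossy fibre synapses, and lies on chromosome 1 from 120340582 to 120343174 (GRCm38, plus strand). Its level ran from 15.7 to 316 CPM in hippocampus, with a median of 171 CPM, and from 0.266 to 11.1 CPM in cortex, with a median of 0.853 CPM. The lowest hippocampus value was the posterior library of AL 66, and the highest cortex value was the visual cortex library of PBS 76, which stood apart above. No cortex library reached a hippocampus library, and the difference was 6.86 ± 0.27 (log2, SE, n = 7 mice; adjusted p = 6.7e-08). It was 7.28 without the posterior libraries of AL 63 and AL 66 and 6.61 without the 4 anterior libraries of high Tcf7l2.

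Dsp encodes desmoplakin, which anchors intermediate filaments at cell junctions, and lies on chromosome 13 from 38151294 to 38198577. Dsp ranged from 0.840 to 36.9 CPM in hippocampus (median 17.2) and reached at most 0.669 CPM in cortex, where the median library had no count, a difference of 5.32 ± 0.28 (limma, adjusted p = 3.0e-07). A gene near 0 in 1 structure, as Dsp was in cortex, passed the filter on low counts through the other structure. The p of such a gene is no separate support, and this applies to C1ql2 and Ndst4 as well. Dsp had counts enough for a test in 17 of the 28 alternative settings. A predicted gene overlaps its exons on the other strand, and in libraries without strand their reads cannot be told apart. Another gene likewise overlaps on the other strand for Prox1, Zbtb20, Tshz2, Deptor, Nr2f2, Nos1, Gabra5, Grin2b, Drd5, Kcnq5, Nr3c2, Hopx and Tnc. It does so too for Aldh1l1, Penk and Alas2. All of these are uncertain to that extent. Lct, the gene of the digestive enzyme lactase, ranged from 1.15 to 85.0 CPM in hippocampus (median 37.4) and from 0 to 2.17 CPM in cortex, a difference of 4.83 ± 0.42. The Dsp ranges did not overlap and those of Lct did, through its lowest posterior library. For both genes the anterior libraries were the higher ones, with median levels of 28.1 against 8.13 CPM for Dsp and 61.7 against 14.8 CPM for Lct.

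Ndst4, on chromosome 3 from 125404076 to 125728899, encodes an enzyme that modifies heparan sulfate chains. It lay between 10.6 and 39.0 CPM in hippocampus (median 26.2) and between 0 and 0.930 CPM in cortex (median 0.205), a difference of 5.61 ± 0.22 (adjusted p = 7.4e-08). Gpr101, an orphan G protein-coupled receptor gene, had at most 2 counts in every cortex library and 0.897 to 17.1 CPM in hippocampus (median 9.20). Against a floor of 3 counts per library, averaged over the cortex libraries, hippocampus was at least 19.9-fold higher. The lowest hippocampus value of Gpr101 still lay above the highest cortex value of 0.552 CPM. Others among the 12 largest were Vwa3b (4.74), Lrrc10b (4.54), Spink8 (4.30), Igsf1 (4.03), Lhx9 (3.93) and Chst9 (3.84). Genes were named by size only if both hippocampus libraries lay above both cortex libraries in every mouse. Their agreement over mice was therefore set by the rule.

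Set beside all 15 brain regions of the control mice, these genes fell into unlike patterns, given here as a description on CPM scaled over those regions. C1ql2, Dsp, Lct and Vwa3b had their highest mean level in anterior hippocampus and their next in posterior hippocampus. Lrrc10b was highest in caudate putamen at 254 ± 52.1 CPM (n = 8), Gpr101 and Igsf1 in hypothalamus at 76.0 ± 12.1 and 138 ± 27.0 CPM (n = 7), Chst9 in entorhinal cortex at 12.4 ± 6.25 CPM (n = 7), Lhx9 in thalamus at 82.5 ± 15.8 CPM (n = 8) and Ndst4 in pons at 35.6 ± 11.8 CPM (n = 7). Spink8 stood at 29.4 ± 4.71 CPM in choroid plexus and 26.7 ± 21.9 CPM in anterior hippocampus (n = 8 each), with overlapping ranges. For the genes whose highest mean lay outside the hippocampus, the excess over motor and visual cortex was shared with other parts of the brain.

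The genes with the largest excess in neocortex were of mixed kinds. Igfn1, an immunoglobulin and fibronectin domain gene on chromosome 1 from 135953578 to 136006342, ran from 7.87 to 22.2 CPM in cortex (median 13.1) and from 0 to 1.37 CPM in hippocampus (median 0.119). The groups did not overlap, and the difference was -5.05 ± 0.19 (adjusted p = 5.7e-08). Igfn1 was near 0 in hippocampus and passed the filter on low counts through cortex, so its p is no separate support. Its separation within each mouse was set by the naming rule. Rspo1, a secreted enhancer of Wnt signalling that marks layer 4, is on chromosome 4 from 124986430 to 125009099. It ran from 23.1 to 82.5 CPM in cortex (median 48.5) and from 0.772 to 4.44 CPM in hippocampus (median 1.79), a difference of -4.47 ± 0.11 (adjusted p = 6.4e-09). Visual cortex was the higher of the cortical regions for both, with medians of 19.8 against 10.1 CPM for Igfn1 and 66.0 against 35.8 CPM for Rspo1.

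Slc47a1, a cation transporter that in brain marks the fibroblasts of the meninges, ran from 4.68 to 26.3 CPM in cortex (median 13.1) and from 0 to 7.79 CPM in hippocampus, where the median library had no count. The difference was -5.01 ± 0.30 in controls and -3.76 ± 0.43 in the treated mice. Col1a2, a fibrillar collagen gene of the same cells, was also lower in hippocampus, by 1.17 ± 0.17 on the log2 scale, whereas Dcn, the gene of the matrix proteoglycan decorin, was higher (1.68 ± 0.24). Of the 10 mural and meningeal markers 3 were higher and 3 lower, with a median of 0.06, and their part in the Slc47a1 difference was not tested. The Slc47a1 libraries of hippocampus and cortex overlapped in range. The other genes among the 12 were Trbc2 (-4.57), a constant segment of the T cell receptor beta locus, Dkkl1 (-4.43), Adam33 (-3.83), Tspan11 (-3.73), Coch (-3.73), Rasgef1c (-3.53), the activity gene Egr2 (-3.53), Cd6 (-3.45) and Tmem215 (-3.25). The naming rule required both hippocampus libraries to lie below both cortex libraries in every mouse.

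**Figure D2:**
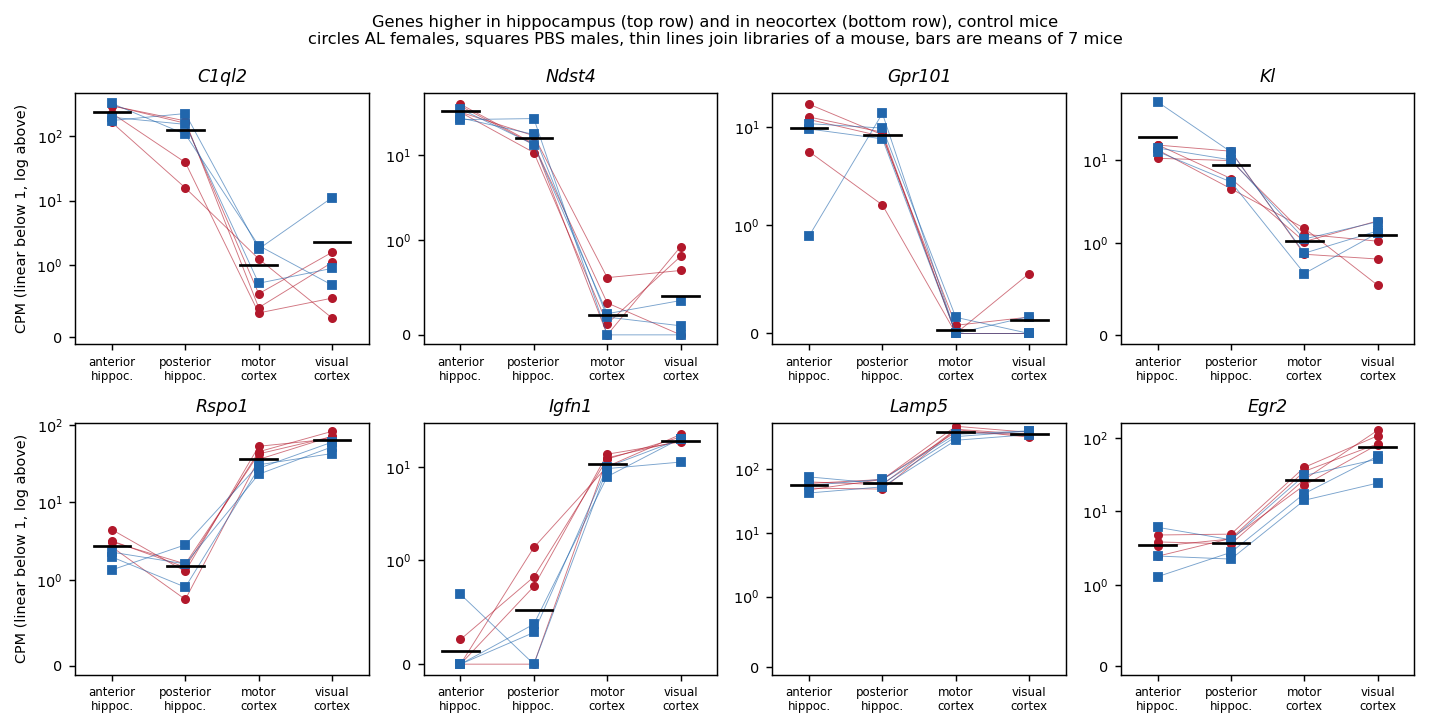
CPM of 4 genes higher in hippocampus (top) and 4 higher in neocortex (bottom) by region, with 1 point per library (circles AL females, squares PBS males), lines joining a mouse and bars for the mean of 7 mice, on axes linear below 1 and logarithmic above. The C1ql2 points run from 15.7 to 316 CPM in hippocampus and from 0.266 to 11.1 CPM in cortex, and Rspo1 runs the other way.

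Lists of cell type markers described the same difference by the cell layers of each structure. Counts are set against the 28.3% of all genes called higher and the 28.8% called lower, and medians against the median of 0.01 over all genes. Of 13 dentate granule cell markers, 10 were higher in hippocampus and 1, Akap7, was lower by 0.15, with a median difference of 2.05. Prox1 stood at 130 ± 36.2 CPM in hippocampus and 15.2 ± 1.33 CPM in cortex, a difference of 2.88 ± 0.18. Glis3 (2.05 ± 0.15) and Tdo2 (2.80 ± 0.23), a zinc finger factor and the enzyme that opens the tryptophan ring, were higher too. In posterior hippocampus alone 7 of the 13 were called higher and 2 lower. Without the posterior libraries of AL 63 and AL 66, 11 were higher and 0 lower, and 2 were lower without the visual cortex library of PBS 76. Prox1 differed by 3.19 without those posterior libraries and by 2.62 without the 4 anterior libraries of high Tcf7l2, where 8 of the list were higher and 2 lower. Those posterior libraries were singled out partly by low Prox1, so the rise for Prox1 was set by that choice.

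Of 11 tested markers of CA1 and subiculum, 8 were higher and 1 lower, with a median of 1.12. Fibcd1, a CA1 marker that encodes an acetyl-binding membrane receptor, ran from 15.7 to 129 CPM in hippocampus (median 57.4) and from 2.17 to 8.56 CPM in cortex (median 4.93), a difference of 3.42 ± 0.21. Spink8, a secreted serine protease inhibitor of CA1 pyramidal cells, had 21.9 ± 13.3 CPM in hippocampus and 0.723 ± 0.410 CPM in cortex. Zbtb20, the zinc finger factor that sets hippocampal neuron identity in development, stood at 531 ± 170 against 114 ± 4.5 CPM, and its cortex libraries kept within 105 to 131 CPM. Wfs1, a CA1 marker of the endoplasmic reticulum that the upper cortical layers also express, differed by 0.94 ± 0.13.

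The 11 tested markers of CA3, CA2 and mossy cells gave 7 higher and 3 lower, with a median of 0.54. Necab2, a neuronal calcium-binding protein gene, differed by 1.74 ± 0.06 and was higher in the posterior libraries (median 92.0 CPM) than in the anterior ones (33.1 CPM). Grik4, the kainate receptor subunit concentrated in CA3, differed by 0.98 ± 0.11. Coch, listed here as a marker, went against the list at -3.73 ± 0.26, with 73.1 ± 10.7 CPM in cortex and 6.00 ± 2.92 CPM in hippocampus. Over the 15 regions Coch was highest in caudate putamen, at 174 ± 35 CPM (SD, n = 8).

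Markers of the neocortical layers split by depth. Of 10 markers of layers 2 to 4, 8 were lower in hippocampus and 2 higher, with a median of -1.21. Cux2 ran from 53.2 to 107 CPM in cortex and from 6.53 to 45.5 CPM in hippocampus, a difference of -2.21 ± 0.15, and Rorb, a nuclear receptor of layer 4, differed by -1.31 ± 0.10. Otof (-1.68), Inhba (-1.38), Rasgrf2 (-1.11) and Cux1 (-1.03) were lower as well. The members that ran the other way were Mdga1 (2.04 ± 0.16), a cell adhesion gene, and Scnn1a (1.75 ± 0.26), an epithelial sodium channel subunit. Scnn1a differed by 2.96 against motor cortex alone and by 0.55 against visual cortex alone.

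The counts for the deep layers were mixed. Of 10 markers of layer 5, 3 were higher and 3 lower, with a median of -0.06, and of 9 tested markers of layer 6, 2 were higher and 2 lower, with a median of -0.27. The layer 5 count of higher markers was 1 without the 4 anterior libraries of high Tcf7l2. The layer 6 count of lower markers varied with the libraries used: 5 were lower without the posterior libraries of AL 63 and AL 66, 4 with anterior hippocampus alone and 0 with mouse 72 added. Fezf2, the factor that specifies neurons projecting to the brainstem and spinal cord, stood at 51.3 ± 16.2 CPM in hippocampus and 53.5 ± 7.30 CPM in cortex and was not called. Deptor (-1.31 ± 0.20) was lower, and the layer 6 marker Tle4 was higher by 0.47 ± 0.05. Crym, the gene of a thyroid hormone-binding crystallin, had 117 ± 18.8 CPM in hippocampus and 40.9 ± 8.85 CPM in cortex. Tshz2 was not called, at 1.26 ± 0.57: its difference was -0.37 in AL 68 and -2.46 in PBS 76, the mice with the lowest posterior Cux2 levels, and between 1.92 and 2.77 in the other 5 mice. Its call varied with the setting. With all 7 mice it was called by edgeR with the replicate block (1.80, adjusted p = 0.012) and by DESeq2 (1.82, adjusted p = 0.0022) on summed counts, and it was called by limma without PBS 76 (1.89).

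Transcription factors of projection neurons changed in both directions. Of 22, 12 were higher and 9 lower, with a median of 0.38. Mef2c, a MADS box factor of excitatory neurons, ran from 951 to 1179 CPM in cortex and from 157 to 505 CPM in hippocampus, a difference of -2.09 ± 0.11. Tbr1 (-1.35 ± 0.15) and Emx1 (-0.96 ± 0.08) were lower too. Bcl11b, a zinc finger factor of deep-layer and hippocampal neurons, was higher at 210 ± 27.3 against 68.7 ± 6.40 CPM, as were Nr2f2 (1.39 ± 0.15) and Lmo3 (1.37 ± 0.09).

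Markers of interneurons were lower more often than higher. Of 19 tested, 10 were lower and 5 higher, with a median of -0.30. Lamp5, a membrane protein of neurogliaform cells that upper-layer excitatory neurons also express, ran from 285 to 472 CPM in cortex (median 366) and from 42.4 to 75.9 CPM in hippocampus (median 58.4), a difference of -2.67 ± 0.06 (adjusted p = 4.7e-09). Vip, the peptide of a class of interneurons that inhibit other interneurons, ran from 82.5 to 162 CPM in cortex and from 8.80 to 52.4 CPM in hippocampus, a difference of -2.06 ± 0.13. Pvalb (-0.98 ± 0.11), Npy (-0.87 ± 0.09), Cck (-0.69 ± 0.08) and Sst (-0.39 ± 0.09), the markers of other interneuron classes, were lower by less. Gad1, a GABA-making enzyme of all of them, did not pass the test, at 519 ± 37.6 CPM in hippocampus and 523 ± 22.8 CPM in cortex. On the same list Gad2 was called higher and Slc32a1 lower.

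Nos1, neuronal nitric oxide synthase, ran the other way, from 32.4 to 74.7 CPM in hippocampus and from 7.72 to 16.0 CPM in cortex, a difference of 2.04 ± 0.06. Calb2, the calretinin gene, was higher by 1.59 ± 0.34, with a wide spread of 7.62 to 139 CPM over the hippocampus libraries. Calretinin also marks mossy cells of the dentate gyrus.

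**Figure D3:**
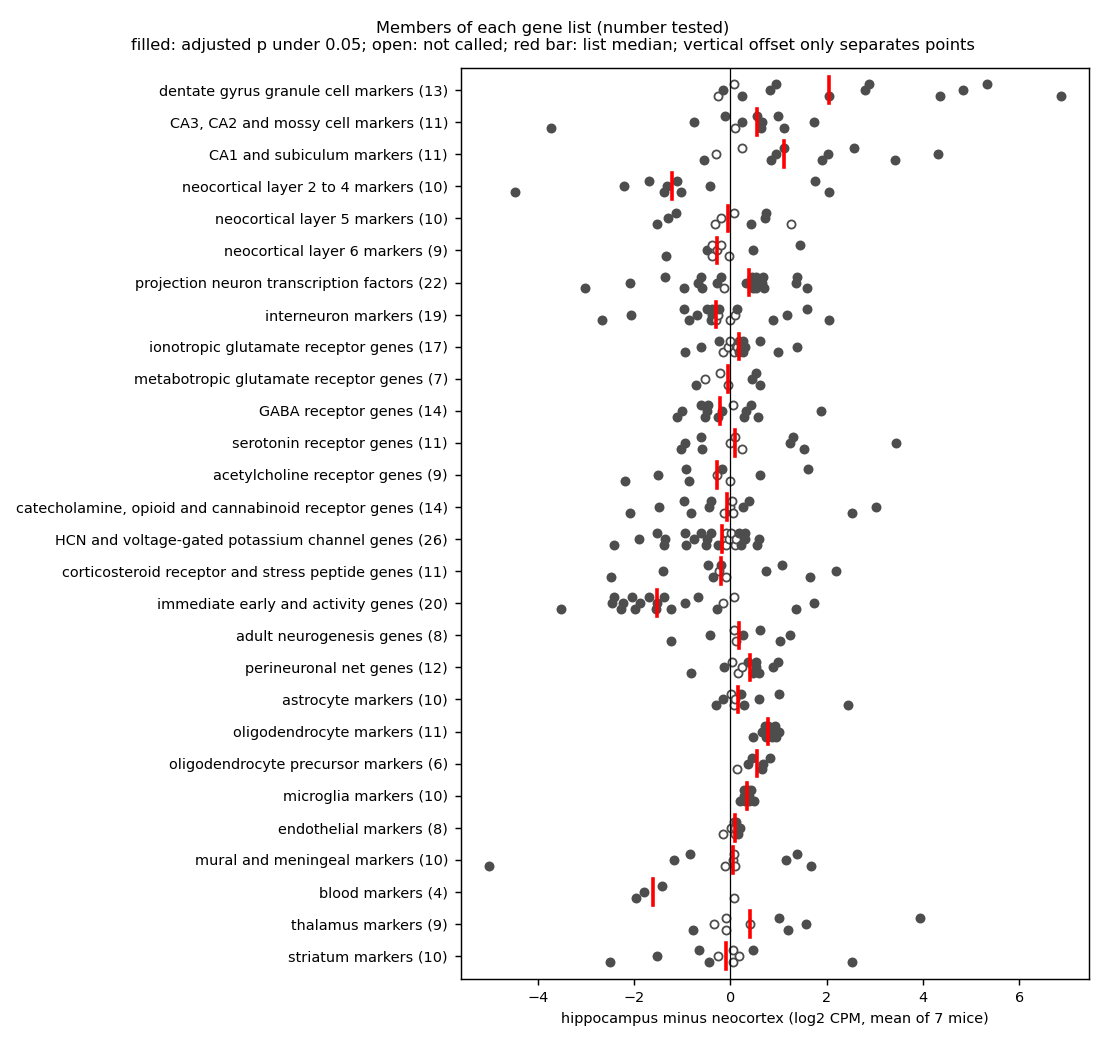
Difference between hippocampus and neocortex (log2 CPM, mean of 7 mice) for each tested member of the 28 gene lists with at least 4 tested genes, filled where the adjusted p is under 0.05 and open elsewhere, with red bars at list medians. The dentate list has its median at 2.05, the layer 2 to 4 list at -1.21 and the activity list at -1.53.

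Immediate early genes are switched on within minutes when a neuron is active, and most were lower in hippocampus. Of 20 activity genes, 16 were lower, 13 of them at 2-fold or more, and 2 were higher, with a median of -1.53. Their summed level ran from 895 to 1809 CPM in the 14 hippocampus libraries and from 2139 to 5829 CPM in the 14 cortex libraries, with no overlap. Visual cortex had the highest median (4668 CPM), followed by motor cortex (2774), posterior hippocampus (1446) and anterior hippocampus (1281), and the ranges overlapped between the cortical regions and between the hippocampal regions.

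Egr2, an activity-induced zinc finger factor on chromosome 10, ran from 14.1 to 127 CPM in cortex (median 37.3) and from 1.29 to 6.05 CPM in hippocampus (median 3.72), a difference of -3.53 ± 0.14 (adjusted p = 7.9e-08). Fos, the AP-1 subunit used to map active neurons, ran from 45.5 to 175 CPM in cortex and from 15.4 to 52.1 CPM in hippocampus, a difference of -2.22 ± 0.14. These Fos ranges overlapped over libraries, yet in each of the 7 mice both hippocampus libraries were below both cortex libraries. Egr1 (-2.45 ± 0.14), Npas4 (-2.41 ± 0.16), Nptx2 (-2.26 ± 0.13) and Arc (-2.05 ± 0.17), a set of activity-induced factors and synaptic proteins, and Dusp1 (-1.99 ± 0.16), a phosphatase that ends MAP kinase signalling, were lower in 7 of 7 mice.

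Members that did not follow were Jun and Nr4a2. Jun, the partner of Fos in AP-1, had 177 ± 37.1 CPM in hippocampus and 51.7 ± 3.74 CPM in cortex, a difference of 1.74 ± 0.12, and Nr4a2, a nuclear receptor, differed by 1.37 ± 0.16. Bdnf, the activity-dependent neurotrophin, was not called (0.08 ± 0.11), nor was Nr4a3 (-0.15 ± 0.15).

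**Figure D4:**
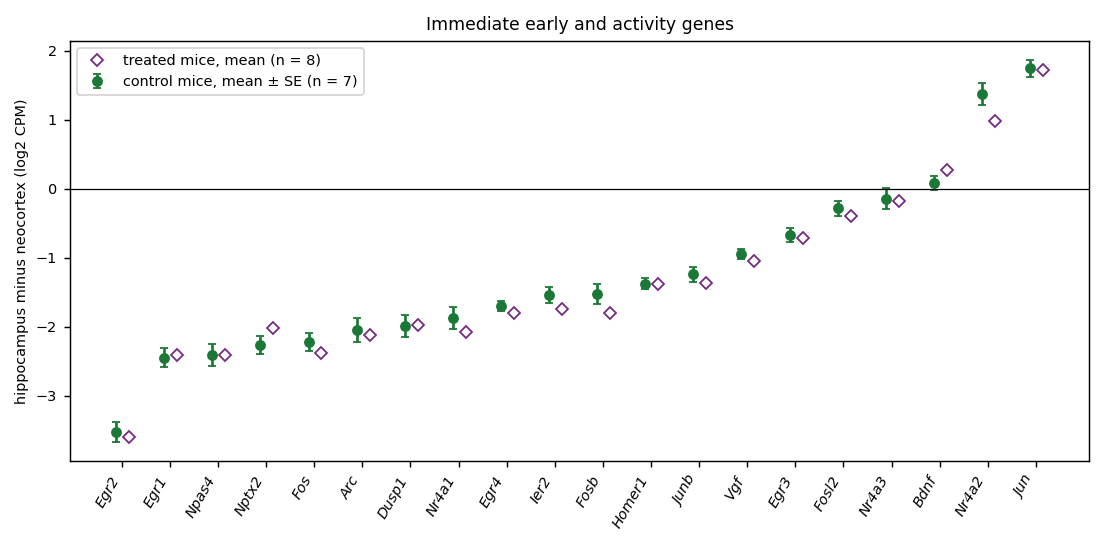
Difference between hippocampus and neocortex (log2 CPM) for the 20 activity genes, ordered by size, in the 7 control mice (filled circles, mean ± SE) and the 8 treated mice (open diamonds, mean). Egr2 is lowest at -3.53 and Jun highest at 1.74 in controls, and Egr2 is at -3.60 in the treated mice.

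Activity genes of this kind are known to carry binding sites for serum response factor (the CArG box) and for CREB (the cAMP response element, TGACGTCA) near their start sites. The 250 bases before each RefSeq start site (GRCm38.p6) were searched on both strands for these motifs, whose letters leave no way for the motifs to overlap. Windows were present for 14 of the 20 activity genes. The CArG box was found for 1 of them, Egr2, and in 1.47% of the 32851 windows of all genes, and TGACGTCA was found for 1, Dusp1, and in 1.55% of all windows. A gene can have more than 1 window, so counts per gene and shares per window are not in the same unit. The 3 sequences show where these motifs lie upstream of genes that were lower in hippocampus, with the motif in capitals and the strand of the gene read 5′ to 3′. The printed Egr2 windows are chr10:67537316-67537565 and chr10:67537619-67537868 on the plus strand, each with the box 63 to 72 bases before a start site. They are named upstream and downstream only relative to each other. A further Egr2 window, chr10:67535249-67535498, lies before both and held neither motif. The Dusp1 window is chr17:26508520-26508722 on the minus strand, with the element 136 to 143 bases before the start site and bases inside annotated exons left out.
Egr2 upstream start: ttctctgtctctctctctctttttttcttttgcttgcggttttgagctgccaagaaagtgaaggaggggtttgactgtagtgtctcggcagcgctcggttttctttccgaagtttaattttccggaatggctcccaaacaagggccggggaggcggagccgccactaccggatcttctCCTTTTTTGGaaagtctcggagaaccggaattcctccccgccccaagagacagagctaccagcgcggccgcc
Egr2 downstream start: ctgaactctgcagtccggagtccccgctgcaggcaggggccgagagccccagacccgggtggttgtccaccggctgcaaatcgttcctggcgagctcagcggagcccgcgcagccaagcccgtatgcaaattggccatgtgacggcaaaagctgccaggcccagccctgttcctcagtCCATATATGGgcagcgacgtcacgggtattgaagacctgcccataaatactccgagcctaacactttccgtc
Dusp1: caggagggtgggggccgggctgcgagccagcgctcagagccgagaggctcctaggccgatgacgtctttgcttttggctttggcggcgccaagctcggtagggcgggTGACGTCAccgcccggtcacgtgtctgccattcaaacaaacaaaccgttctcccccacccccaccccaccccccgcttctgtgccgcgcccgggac
A match is a description of letters and not a measured binding site.

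Neurotransmitter receptors changed by subunit more than as families. Among 17 tested ionotropic glutamate receptor genes 9 were higher and 3 lower, with a median of 0.17. Gria1, the AMPA receptor subunit known for its part in hippocampal plasticity, had a level of 158 to 270 CPM in cortex and 259 to 670 CPM in hippocampus, and the difference was 1.39 ± 0.08. The AMPA subunits Gria4 (-0.95 ± 0.12) and Gria3 (-0.61 ± 0.03) were lower. Grin2b, an NMDA receptor subunit, differed by 0.22 ± 0.07 and was called by limma, but not by edgeR with the replicate block (0.16, adjusted p = 0.12), in either cohort alone or against posterior hippocampus alone (0.04, adjusted p = 0.74). Among 7 tested metabotropic genes 3 were higher and 1 lower, with Grm5 at 0.61 ± 0.03 and Grm3 at -0.71 ± 0.05. Without the posterior libraries of AL 63 and AL 66, 3 of these were lower.

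Of 14 tested GABA receptor genes, 5 were higher and 8 lower, with a median of -0.22. Gabra5, the subunit of extrasynaptic receptors that are abundant on hippocampal pyramidal cells, ran from 187 to 456 CPM in hippocampus and from 30.2 to 126 CPM in cortex, a difference of 1.87 ± 0.08 (adjusted p = 9.4e-08). Within cortex its median was 109 CPM in motor and 42.1 CPM in visual cortex. Gabrd, the subunit of another extrasynaptic receptor, ran from 79.3 to 108 CPM in cortex and from 31.9 to 59.0 CPM in hippocampus, a difference of -1.11 ± 0.04. Gabra3 was lower too (-1.01 ± 0.16).

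Of 11 tested serotonin receptor genes, 4 were higher, all at 2-fold or more, and 4 were lower. Htr4, a receptor that raises cyclic AMP, ran from 3.21 to 19.4 CPM in hippocampus and from 0.276 to 1.72 CPM in cortex, a difference of 3.43 ± 0.18. Htr5b (1.53 ± 0.15), Htr2c (1.31 ± 0.23) and Htr1a (1.24 ± 0.07), the inhibitory receptor of principal cells, were higher, and Htr5a (-1.03 ± 0.10) and Htr2a (-0.94 ± 0.08), the excitatory receptor of cortical pyramidal cells, were lower. The cortical regions were unlike for Htr2a and Htr5b. Against motor cortex alone Htr2a differed by -1.66 and Htr5b by 2.40, and against visual cortex alone by -0.22 and 0.66.

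Catecholamine, opioid and cannabinoid receptors gave 4 higher and 6 lower of 14. Drd5, a dopamine receptor that raises cyclic AMP, had 4.98 to 33.2 CPM in hippocampus (median 26.1) and 0.574 to 5.62 CPM in cortex (median 2.24), with a difference of 3.02 ± 0.21. Drd2 was higher by 2.53 ± 0.26 at low levels of 5.81 ± 2.57 against 0.854 ± 0.321 CPM. The adrenergic receptors Adra1b (-2.09 ± 0.17) and Adrb1 (-1.49 ± 0.08) were lower. Among 9 tested acetylcholine receptor genes 2 were higher and 5 lower, with Chrna5 at 1.62 ± 0.25 and Chrnb3 at -2.19 ± 0.26, both at most 10.9 CPM in every library. The mean difference of Chrna5 was 2.20 in AL mice (1.53 to 2.51) and 0.84 in PBS mice (0.71 to 0.97). Between cohorts Chrna5 was not called.

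Of 26 tested channel genes of the HCN and voltage-gated potassium families, 6 were higher and 13 lower, with a median of -0.18. The lower ones were led by Kcnh5 (-2.41 ± 0.15), Kcnv1 (-1.89 ± 0.10), Kcnq5 (-1.53 ± 0.09) and Kcnh1 (-1.37 ± 0.10), which encode 2 ether-a-go-go channels, a silent modifying subunit and a subunit of the M current. Kcnv1 ran from 118 to 186 CPM in cortex and from 26.1 to 68.9 CPM in hippocampus.

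The hippocampus is a major target of adrenal steroids, and the receptors for them differed in direction. Nr3c2, the mineralocorticoid receptor, ran from 51.3 to 182 CPM in hippocampus (median 131) and from 28.4 to 45.7 CPM in cortex (median 34.9), a difference of 1.66 ± 0.10 (adjusted p = 8.4e-07). Nr3c1, the glucocorticoid receptor, was lower by 0.47 ± 0.03 on the log2 scale, with 100 to 134 CPM in hippocampus and 156 to 179 CPM in cortex. Neither receptor's hippocampus range met its cortex range. Fkbp5, a chaperone that damps the glucocorticoid receptor and is itself induced by it, was higher (1.07 ± 0.09).

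Crh, the corticotropin-releasing hormone gene, was lower in hippocampus by 2.47 ± 0.14, with 1.57 ± 0.579 CPM in hippocampus and 9.82 ± 1.32 CPM in cortex. Its receptors diverged: Crhr1 differed by -1.39 ± 0.11 and Crhr2 by 2.18 ± 0.19, the latter at 3.09 ± 0.611 and 0.524 ± 0.191 CPM. Of the 11 genes on the corticosteroid and stress peptide list 4 were higher and 5 lower.

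The dentate gyrus is one of the few sites where neurons are born in adult rodents. Of 16 neurogenesis genes only 8 had counts enough for a test, and the untested ones included the proliferation genes Mki67, Top2a and Cdk1. Of the 8, 4 were higher and 2 lower. Hopx, a marker of quiescent stem cells and of astrocytes, was higher by 1.24 ± 0.10, and Sox11, a factor of immature neurons, by 1.03 ± 0.05. Dcx, the microtubule protein of immature neurons, was lower by 1.23 ± 0.13, with 5.91 to 20.7 CPM in hippocampus and 20.6 to 35.9 CPM in cortex. Among 12 tested perineuronal net genes, 7 were higher and 2 lower, with Tnc at 1.0 ± 0.16 and Hapln4 at -0.82 ± 0.05.

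Glial markers were mostly higher in hippocampus. All 11 oligodendrocyte markers were called higher, with a median of 0.78, and none reached 2-fold. Mbp, the myelin basic protein gene, ran from 1460 to 6247 CPM in hippocampus (median 2910) and from 1081 to 2897 CPM in cortex (median 1537), a difference of 0.87 ± 0.09, and the ranges overlapped. The summed level of the list was 5574 to 13498 CPM in anterior hippocampus, 3349 to 7921 CPM in posterior hippocampus, 3357 to 6171 CPM in motor cortex and 2373 to 3287 CPM in visual cortex. With posterior hippocampus alone in place of both regions, 2 of the 11 were called higher and Mbp was not (0.36, adjusted p = 0.11). Without the 4 anterior libraries of high Tcf7l2, 6 of the 11 were called higher and Mbp differed by 0.52. Of 6 precursor markers 5 were higher, with a median of 0.55.

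All 10 microglia markers were higher, with a median of 0.35 and C1qb as the largest (0.49 ± 0.05), and in posterior hippocampus alone 2 of 10 were. Of 10 astrocyte markers 5 were higher and 2 lower. Gfap, the intermediate filament of astrocytes, had 441 to 1445 CPM in hippocampus (median 819) and 98.4 to 203 CPM in cortex (median 141), a difference of 2.44 ± 0.09 (adjusted p = 4.6e-08). Aqp4, the water channel of their end-feet, differed by 1.0 ± 0.06, and the glutamate transporter Slc1a2 by 0.01 ± 0.05, which was not called. Of 8 endothelial markers 3 were higher, by at most 0.19, and 5 were not called. The count was 0 by edgeR with or without the replicate block, by DESeq2, in either cohort alone, with posterior hippocampus alone and without the 4 anterior libraries of high Tcf7l2, and 1 to 3 when each mouse was left out.

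Markers of neighbouring tissue moved with the hippocampus as well. Of 9 thalamus markers 4 were higher and 1, Rora, was lower. Lhx9, a LIM homeobox factor, ran from 2.22 to 29.3 CPM in hippocampus and from 0.168 to 1.51 CPM in cortex, a difference of 3.93 ± 0.35. Prkcd and Tcf7l2 differed by 1.56 ± 0.22 and 1.20 ± 0.22, and by 0.55 and 0.43 in posterior hippocampus alone, while Lhx9 kept 3.47 there. Without the 4 anterior libraries of high Tcf7l2 the differences were 0.79 for Prkcd, 0.46 for Tcf7l2 and 3.69 for Lhx9, and 4 thalamus markers were lower. The fall for Tcf7l2 itself was set by the choice of those libraries. The 9 thalamus markers summed to 184 to 792 CPM in anterior hippocampus, 130 to 310 CPM in posterior hippocampus, 201 to 236 CPM in motor cortex and 236 to 288 CPM in visual cortex, and their part in the differences of other genes was not tested.

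Kl, the klotho gene of choroid plexus and of some neurons, was the 1 of 12 choroid plexus markers with counts enough to test. It ran from 4.55 to 50.9 CPM in hippocampus (median 12.7) and from 0.542 to 1.86 CPM in cortex (median 1.09), a difference of 3.15 ± 0.19, and 3.02 without the anterior hippocampus library of PBS 76, which held the 50.9 CPM. Ttr had no count in the anterior libraries of AL 63, AL 66, PBS 80 and PBS 84, whose Kl levels were 12.8 to 15.5 CPM and whose levels of Otx2, another marker on the list, were 0.147 to 12.2 CPM. The summed list was at 17.1 to 1537 CPM in anterior hippocampus, 6.87 to 18.0 CPM in posterior hippocampus and at most 4.22 CPM in cortex, and its part in the Kl difference was not tested. Of 4 tested blood markers the 3 haemoglobin genes were lower in hippocampus, with Hbb-bs at a median of 0.364 CPM in hippocampus and 2.72 CPM in cortex (-1.79 ± 0.42, lower in 6 of 7 mice). The count of lower blood markers was 0 in AL mice alone and by edgeR without the replicate block. It was also 0 with a minimum count of 50, where the haemoglobin genes had too few counts for a test.

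The difference was also fitted within each cohort. AL mice alone gave 5507 called genes of 13343 (41.3%) and PBS mice alone 4236 of 13507 (31.4%). At 2-fold the shares were 5.99% in AL (2.71% higher and 3.28% lower) and 6.39% in PBS (2.93% higher and 3.46% lower). C1ql2 differed by 7.09 in AL and 6.54 in PBS, Rspo1 by -4.63 and -4.26, and Gfap by 2.54 and 2.29. The difference itself changed between cohorts for 1 gene (0.00744%; 386 at an unadjusted p under 0.05). This was Xist, at -1.12 ± 0.10 (AL minus PBS, adjusted p = 0.020), where the males were at 3.14 CPM or less. The count was 0 with a prior count of 5 and when any of 6 of the 7 mice was left out.

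The 8 treated mice gave the same measure in other animals. Their fit called 7496 of 13285 genes (56.4%), 27.8% higher and 28.7% lower, and 833 of them at 2-fold (6.27%), 2.95% higher and 3.32% lower. Of the 7666 genes called in controls, 7593 were tested there, 7541 had the same direction, 6441 were called the same way and 1 was called the opposite way. Of the genes called at 2-fold in controls, 780 were tested, 780 had the same direction and 772 were called the same way. C1ql2 differed by 7.17 ± 0.20 (SE, n = 8), Gabra5 by 2.0 ± 0.12, Nr3c2 by 1.60 ± 0.15 and Egr2 by -3.60 ± 0.13 in the treated mice. Of the 1537 genes (11.4% of all tested in controls) whose libraries did not overlap within any control mouse, 1528 were tested in the treated mice. In all 8 of those, 1052 were separated the same way. The share of all genes separated in the treated mice was not computed, nor was the share of all genes with the same direction. The counts of shared direction and separation are therefore a description only.

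**Figure D5:**
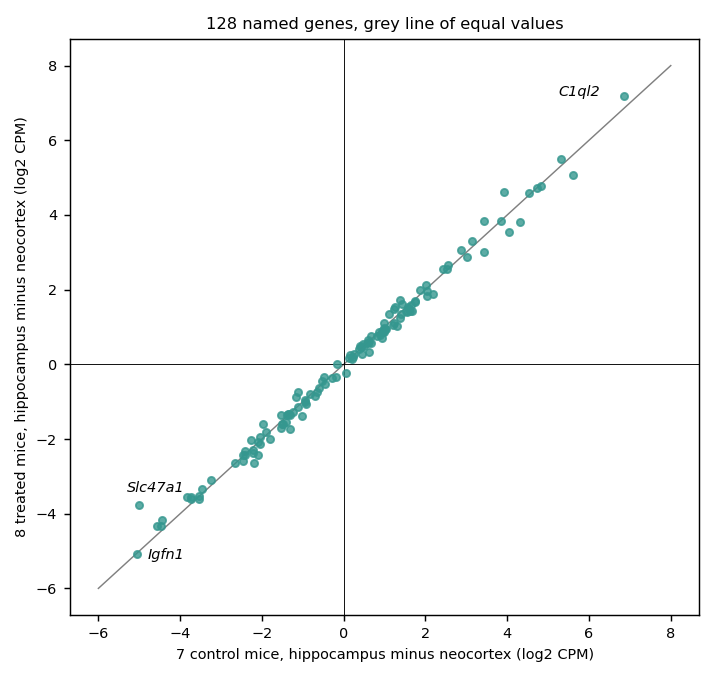
Difference between hippocampus and neocortex (log2 CPM) of 128 named genes in 8 treated mice against 7 control mice, 1 point per gene, with the grey line at equal values. Signs match for 126 genes, and Slc47a1 has the widest gap, at 1.25.

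Neither treatment changed the regional difference of a gene past the threshold. For aDR against AL 0 of 13283 genes were called by limma (290 at an unadjusted p under 0.05), and for YMP against PBS 0 of 13435 (204 at an unadjusted p under 0.05). The genes of smallest p were Ppp1r3c, a glycogen-targeting phosphatase subunit, at -0.36 ± 0.08 for aDR minus AL (adjusted p = 1.0), and Kdm6b, a histone demethylase, at -0.53 ± 0.12 for YMP minus PBS (adjusted p = 1.0). On simulated counts with these groups, 82.8% of genes changed by 1 (log2) and 97.0% of those changed by 2 were recovered for aDR, and 78.8% and 93.9% for YMP. Those simulations changed 100 genes of each size and drew every library independently, without shifts shared by a mouse or dissection. Recovery in the real data can therefore be lower. Prss16 differed by 1.32 for YMP minus PBS and was not called. A p that misses the threshold does not show that the regional difference was alike under treatment.

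The entorhinal cortex is the older cortex that feeds the hippocampus. Against it, in the 6 control mice with all the regions needed (18 libraries), 5406 of 13954 genes were called (38.7%), 19.4% higher and 19.3% lower, and 932 at 2-fold (6.68%), 3.43% higher and 3.25% lower. Since both comparisons share the hippocampus libraries, their values are only set side by side. C1ql2 differed from entorhinal cortex by 4.05 ± 0.58 and Prox1 by 3.27 ± 0.29, near the Prox1 value of 2.88 against neocortex. Ndst4 differed by 0.55 ± 0.18 and was called, Gpr101 by -0.09 ± 0.22 and Igsf1 by 0.29 ± 0.14, neither of which was called, and Chst9 by -1.51 ± 0.22. Against neocortex Ndst4, Igsf1 and Chst9 differed by 5.61, 4.03 and 3.84.

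Among genes of the neocortex, Igfn1 differed from entorhinal cortex by -4.25 ± 0.38 and Rasgef1c by -3.16 ± 0.36. Rspo1 had the opposite sign there (1.41 ± 0.39), and Cux2 (0.18 ± 0.22), Rorb (0.00 ± 0.08) and Egr1 (0.14 ± 0.17) were not called. Arc was higher in hippocampus than in entorhinal cortex (1.21 ± 0.19), and Egr2 was lower (-1.47 ± 0.37). Mbp was higher by 2.58 ± 0.14, against 0.87 over neocortex, and Drd5 by 4.27 ± 0.57.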

How the data were processed

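Total RNA was extracted from homogenised tissue with RNeasy columns, copied into full-length cDNA by Smart-Seq2 and made into libraries by Nextera XT tagmentation, without strand information or molecular identifiers, per the labels' protocols. The authors deposited a table of raw counts for 21076 genes in 238 libraries, from which all values were computed. The submitters' processing notes name Trim Galore 0.3.7, STAR 2.5.3a, DESeq2 and the build GRCm38, and the counting program and annotation are not given in the sources used here. Gene positions are from GENCODE on the same build, matched by symbol.

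Genes passing filterByExpr of edgeR 4.0.16 (minimum count 10, minimum total count 15) were scaled by TMM and turned into log2 CPM with a prior count of 2. Each mouse gave 1 difference per gene, tested by limma 3.58.1 (eBayes with a trend, R 4.3.3) with Benjamini-Hochberg adjustment. The mouse number pairs regions of 1 animal. Deviations from group means correlated at 0.205 on average between hippocampus and cortex of the same mouse (0.0399 to 0.454) and at -0.0789 between different mice of a cohort. Since deviations sum to 0 within a cohort, the negative value largely follows from the positive one and is no separate observation. A chi-square comparison of 36 replicate pairs gave 1.69 or more for each degree of freedom (median 6.13), so each library counted once. On simulated counts for the control comparison (13417 genes), 84.0% of 100 genes changed by 0.5 (log2) and 97.0% of 100 genes changed by 1 were recovered, with 14 false calls. Simulated libraries were drawn independently of each other, without shifts shared by a mouse or dissection.

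Named genes were the 12 largest and 12 smallest differences among genes called at 2-fold, with at least 5 CPM where higher and no overlap in any mouse, up to 4 leading members of each of 30 lists, a fixed set of known genes and the genes of smallest p in the treatment comparisons, and some of these genes are not reported here. The comparison, members and lists were chosen with earlier results of these data known. P-values measure the spread between these samples. Alternatives covered scaling, filters, the prior count, edgeR and DESeq2 1.42.0 on summed counts, single regions, single cohorts, mouse 72 and leaving out each mouse; leaving out single libraries, or the 4 anterior ones of high Tcf7l2, was chosen after seeing the data. Library totals limit the precision of genes with few counts, and there were 0 unused columns.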

Additional observations from a re-analysis of the deposited data

Results flagged for a closer look

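Dixon's test at 95% was applied to the 4 AL mice for the differences of 129 named genes and for the library totals of each region, 133 groups in all, and 4 of them held a mouse far from the other 3. Chance flags about 1 in 20 groups. In AL 68 the difference of Adam33 was -5.95 (others -3.43 to -3.10), that of Dcx -1.92 (others -1.01 to -0.94) and that of Grm8 -1.58 (others -0.08 to 0.17). In AL 66 the difference of Aldh1l1 was -0.13 (others -0.43 to -0.40). The posterior hippocampus of AL 68 had a Cux2 level of 6.53 CPM, and those of the other AL mice had 21.4 to 45.5 CPM. The part of the dissection in these values was not tested.

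The cohorts differed in the regional difference of Xist, by -1.12 (AL minus PBS), which the limma test of the difference between cohorts called. Sex and experiment cannot be told apart, and the call was lost when any of 6 mice was left out.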

How the results depend on the processing

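Counts of called genes ran from 6722 to 7425 when each mouse was left out in turn, and edgeR on counts summed per mouse and structure called 7243 genes with the replicate block (pairing by mouse) and 6350 without it, of which 6705 and 5904 were also called by limma; DESeq2 with the block called 6188, 5894 of them shared. Of the 811 genes at 2-fold these fits kept 804, 794 and 806. PBS mice alone called 4236 genes, 1960 higher and 2276 lower. Without a filter on low counts, 555 genes were higher at 2-fold; with a minimum count of 50, 490 genes passed at 2-fold, 207 higher and 283 lower, from fewer genes tested. The count of 1 gene between cohorts was 0 with a prior count of 5 and 0 to 1 when each mouse was left out. For these last changes the cause was not tested.

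Of the alternative values of single genes, 3438 kept direction and call, 93 lost the call, 13 gained it and 10 changed sign. The sign changes were Fezf2 at 0.00075 (edgeR without the block), 0.16 (posterior only) and 0.080 (without the anterior libraries of AL 68, AL 69, PBS 80 and PBS 84), Cdh5 at 0.0063 (anterior only) and 0.015 (PBS mice alone), Penk at 0.037 (anterior only), Ly6c1 at -0.032 (posterior only), and Alas2 at -0.018 (posterior only), -0.017 (without those anterior libraries) and -0.013 (motor cortex only). Depth limits the lower level of genes with few counts: no cortex library held more than 2 counts of Gpr101 or 5 of Dsp. Each of these genes was tested in 17 of the 28 alternative settings.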
